A study of Mus musculus with 18 samples.

Results

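The 46 genes described here encode RNA polymerase II (RNAPII), the factors that hold it near the promoter, the kinases and elongation factors that release it, and the Integrator complex. They were taken by symbol from the gene table of a TT-seq experiment in murine embryonic stem (ES) cells, and all 46 were found among its 21859 genes. By role, 13 are Polr2 subunit genes, 9 encode NELF, DSIF and associated elongation factors, 13 encode P-TEFb, other transcriptional kinases and super elongation factors, and 11 encode Integrator subunits. For 33 of the 46, the table of promoter upstream transcripts (PROMPTs) also held a row, among 32253 PROMPTs.

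The cells were E14 ES cells carrying the plant F-box protein osTIR1 at Rosa26, either untagged or with SPT16, a subunit of the histone chaperone FACT, fused at its C-terminus to mini-AID and 3xV5 on both alleles, in 2 clones. Each of these 3 lines was treated for 24 h with the auxin 3-IAA, by which AID-tagged SPT16 is degraded, or with the vehicle EtOH at 0.1%, giving 6 conditions with 3 libraries each and 18 libraries in all. All groups shared osTIR1, feeder-free culture with serum, LIF and the inhibitors CHIR99021 and PD0325091, and a 5 min pulse of 4-thiouridine, which marks the RNA made during the pulse for purification and sequencing (TT-seq). The methods of the study give 500 µM for 3-IAA and for 4-thiouridine, whereas the sample labels give 500 nM and 500 mM. The study treats the clones as biological replicates and repeats of a sample as technical ones.

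For each gene, the value used here is the authors' mean normalized count over all libraries, control and SPT16-depleted together. It carries no value per library, and therefore no spread between replicates and no difference between treated and control cells can be given from it. The columns of the authors' own comparison in the same tables were not used. What follows is a description of how strongly these genes and their PROMPTs were transcribed across the whole experiment, with no test.

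RNAPII is a 12-subunit enzyme whose largest subunits, encoded by Polr2a and Polr2b, form the catalytic center. Soon after initiation the polymerase pauses, bound by DSIF (Spt4 and Spt5) and the negative elongation factor NELF. The kinase P-TEFb, made of CDK9 and a cyclin T, phosphorylates these factors and the polymerase tail and lets elongation proceed, while the 7SK ribonucleoprotein with HEXIM1 and LARP7 keeps part of P-TEFb inactive. Integrator binds paused polymerase, cleaves the nascent RNA and can end transcription early, and it also processes small nuclear RNAs. ES cells are known for many genes with paused RNAPII, among them developmental regulators.

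Across the experiment, the 8 ES cell marker genes examined, Pou5f1, Nanog, Sox2, Zfp42, Esrrb, Tfcp2l1, Dppa5a and Klf4, lay between 401 and 5779 normalized counts per kb of gene. Of 6 fibroblast markers, Pdgfrb was the highest at 23.8 per kb and the others lay at or below 4.94 per kb. Of 4 liver and blood markers, Hbb-bt was listed at 0 and Apoa1 was the highest at 3.85 per kb. Depth was traced through genes with 1 read in 1 library, whose mean depends on the library alone. Both tables held 18 such values, the number of libraries, and in the gene table the deepest and shallowest library differed by 5.34 times by this measure. The gene and PROMPT tables were normalized separately.

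All 46 genes were transcribed, and all lay above the median of the 17664 genes with a mean of at least 1, the study's own lower limit for expression. Levels are given per kb of annotated gene length, introns included, because TT-seq reads cover introns. Reads also appear to have been counted over whole genes. Of 190 genes nested on the same strand without a shared exon, 188 were listed at 0. Levels per kb of merged exons, given as an alternative, divide such counts by exon length alone. That scale is therefore raised for genes with a large share of intron. Over all members the median was 206 normalized counts per kb of gene, against 38.9 for the genes with a mean of at least 1. The members spanned from 70.4 per kb for Tcea1 to 983 per kb for Hexim1. Of the 46, 37 fell in the top 25% of genes and 14 in the top 10%. By group, the median was highest for P-TEFb, CDKs and super elongation factors (296 per kb), then for the Polr2 subunits (225), NELF, DSIF and associated factors (186) and Integrator (124). This order is one of levels per kb of gene. Per kb of merged exons, the median of NELF, DSIF and associated factors (935) lay above that of the Polr2 subunits (903), with Integrator at 876. It did not hold for unscaled means either, where the median of Integrator, 7518 normalized counts, lay above that of the Polr2 subunits, 1533. Integrator genes had a median length of 46.9 kb and Polr2 subunit genes one of 6.32 kb.

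**Figure D1:**
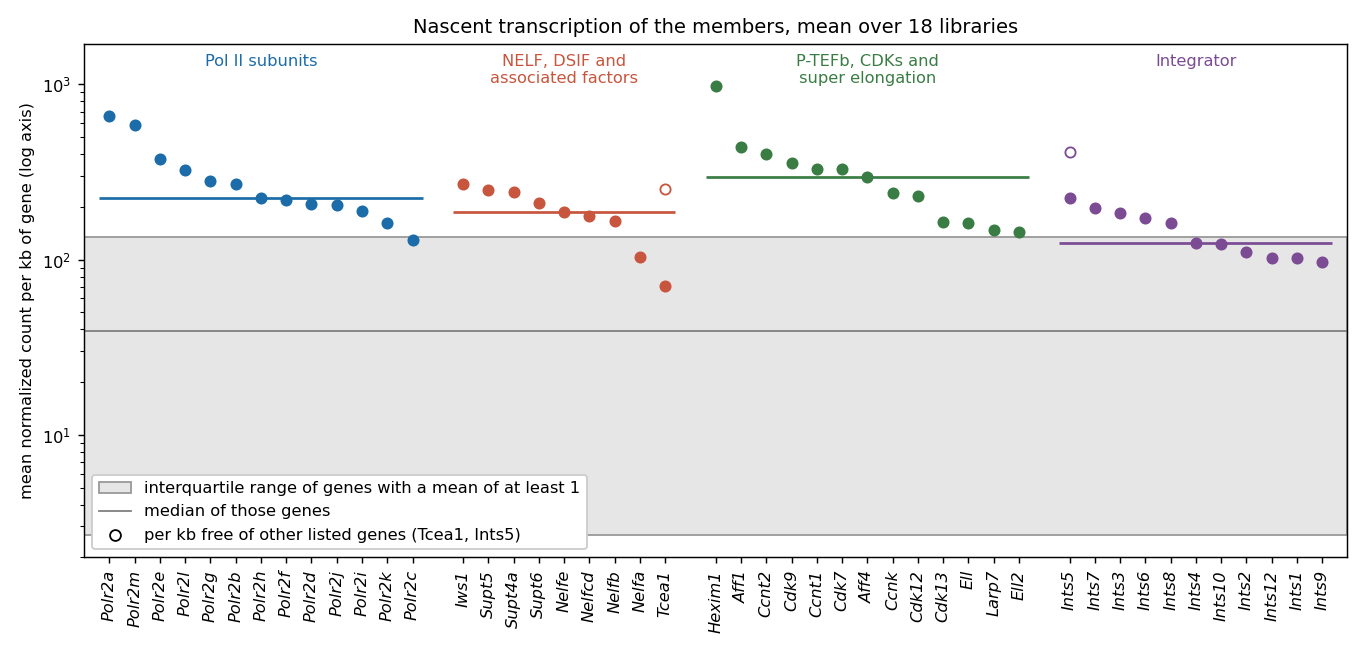
Each point is 1 member, and the vertical axis gives its mean normalized count per kb of gene on a log scale, over 18 libraries; colored bars mark group medians, the gray band and line the interquartile range and median (38.9) of genes with a mean of at least 1, and open circles the level of Tcea1 and Ints5 per kb free of other listed genes. Hexim1 (983) is the highest point, every member lies above the gray line, and over whole genes the 11 Integrator genes span the narrowest range, 2.33-fold. This does not hold with the open circles. Integrator then runs from 96.6 to 414 per kb, and NELF, DSIF and associated factors from 104 to 271 per kb.

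Among the Polr2 subunit genes, Polr2a, which encodes the catalytic subunit with the C-terminal repeat tail, was the most strongly transcribed at 659 per kb (mean 16241 normalized counts over 24.6 kb). Its partner in the catalytic center, Polr2b, stood at 271 per kb, so that Polr2a was 2.43 times higher, but 1.01 times per kb of merged exons. Merged exons made up 28.7% of Polr2a and 11.9% of Polr2b. Polr2m, which encodes Gdown1, a protein that binds RNAPII and is not among the core subunits, followed Polr2a at 589 per kb. The other 10 subunit genes kept within 2.90-fold of each other, from Polr2c at 129 per kb to Polr2e at 375 per kb. Polr2a and Polr2m thus stood above every other gene of the group.

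Of the small subunits, 5 are shared by RNA polymerases I, II and III. These were Polr2e (375 per kb), Polr2l (326), Polr2h (225), Polr2f (218) and Polr2k (161), and their median of 225 per kb was close to the 207 per kb of the 7 RNAPII-specific genes. Per kb of merged exons the medians lay further apart, at 687 (Polr2h) and 1230 (Polr2g). Of the RNAPII-specific ones, Polr2g, whose product forms the stalk with that of Polr2d, stood at 281 per kb and Polr2d at 207 per kb. Polr2j and Polr2c, whose products form a heterodimer in the assembly core of the enzyme, stood at 205 and 129 per kb. Polr2i, the shortest member at 1.44 kb, stood at 189 per kb, although its mean of 273 normalized counts was the lowest of all 46. Its count is 59.5 times lower than that of Polr2a, whereas the levels per kb of gene differ by less than 4-fold. Per kb of merged exons, which made up 84.0% of Polr2i and 28.7% of Polr2a, the levels were 225 and 2298.

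The DSIF genes Supt5 and Supt4a stood at 249 and 244 per kb, 1.02-fold apart, although their means of 5951 and 1484 normalized counts differ by 4.01-fold. Per kb of merged exons, Supt4a was 1.53 times higher. The 4 NELF genes spanned 1.79-fold, with Nelfe at 186, Nelfcd at 178, Nelfb at 165 and Nelfa at 104 per kb, and their median of 171 per kb lay below both DSIF genes. Per kb of merged exons Nelfa, at 1014, was instead the highest of the 4, but exons made up only 10.3% of its length, the lowest share among them. Iws1, whose product binds SPT6 on elongating polymerase, stood at 271 per kb. Supt6 itself, which encodes that histone chaperone, stood at 209 per kb.

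Tcea1 encodes TFIIS, which helps backtracked polymerase to resume. It had the lowest level of all members, 70.4 per kb, yet 72.2% of its length on chr1:4857814-4897909 is shared with Gm37988, an annotated coding gene on the same strand that held 682 normalized counts of its own. Per kb of the 11.1 kb that no other listed gene shares, Tcea1 stood at 253 per kb, close to Iws1 and Supt5. Ints5 was the only other member with such an overlap. Gm49416 covers 45.5% of it on chr19:8893005-8897888, and its level was 225 per kb over the whole gene and 414 per kb over the free part. Genes with no free base were nearly all listed at 0 in this table (398 of 400), and whether reads in these 2 overlaps were left uncounted was not tested.

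The P-TEFb and super elongation group held the highest level and the highest mean of the set. Hexim1, whose product inhibits P-TEFb within the 7SK particle, stood at 983 per kb, at percentile 98.7 of genes, and is the only member without an intron (3495 bases on chr11:103116231-103119725). Larp7, whose product stabilizes 7SK RNA, stood at 148 per kb, 6.62 times lower than Hexim1, whereas per kb of merged exons it was 1.06 times higher. Merged exons made up 14.2% of Larp7. Aff1, a scaffold of the super elongation complex, had a mean of 71275 normalized counts over 163 kb, the highest of the 46, and a level of 437 per kb. All 13 genes of this group were in the top 25% of genes, and 7 of them in the top 10%.

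Within P-TEFb, the kinase gene Cdk9 (357 per kb) lay between the cyclin genes Ccnt2 (398) and Ccnt1 (329). Per kb of merged exons, Cdk9 (564) instead lay below both Ccnt2 (1093) and Ccnt1 (1159). Exons made up 63.2% of Cdk9, 36.4% of Ccnt2 and 28.4% of Ccnt1. Cdk7, which encodes the kinase of TFIIH that phosphorylates the polymerase tail at initiation, also stood at 329 per kb. Cdk12 and Ccnk, a kinase and its cyclin that act on elongating polymerase, stood at 231 and 239 per kb, 1.04-fold apart, while the means of 17391 and 5692 normalized counts lie over genes of 75.4 and 23.8 kb. Cdk13, the other partner of cyclin K, stood at 163 per kb. Ell and Ell2, elongation factors that raise the catalytic rate of the polymerase, stood at 162 and 143 per kb.

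The 4 pairs of paralogs in this group lay within 1.48-fold per kb of gene length, which did not hold on other scales. Cdk12 over Cdk13 gave a ratio of 1.41, Ccnt2 over Ccnt1 one of 1.21, Ell over Ell2 one of 1.13 and Aff1 over Aff4 (296 per kb) one of 1.48, all per kb. Before length scaling, the ratio of Aff1 to Aff4 was 3.39 and that of Ell to Ell2 was 0.918, on the other side of 1. Per kb of merged exons, the ratios were 1.29 for Cdk12, 0.943 for Ccnt2, 2.90 for Ell and 4.82 for Aff1. The exon scale differs with intron share, since exons made up 5.80% of Aff1 and 18.9% of Aff4, and 5.82% of Ell and 15.0% of Ell2. These ratios come from a mean over libraries, and their error between replicates is not known.

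Integrator genes had the lowest median level, 124 per kb, and no member in the top 10% of genes over whole genes, although 5 of 11 were in the top 25%. Over the part free of Gm49416, Ints5 reached percentile 95.5. Over whole genes they spanned 2.33-fold, from Ints9 at 96.6 to Ints5 at 225 per kb. In the cleavage module, Ints4 stood at 124 and Ints9 at 96.6 per kb, near Ints11, which encodes the endonuclease and is not a member, at 132 per kb. Of genes for subunits that tie Integrator to the phosphatase PP2A, Ints6 stood at 173, Ints8 at 162 and Ints5 at 225 per kb. Of the backbone genes Ints1, Ints2 and Ints7, the levels were 101, 111 and 197 per kb. Ints3, also part of the single-stranded DNA binding complex SOSS, stood at 183, Ints10 at 122, and Ints12, which encodes a PHD finger protein, at 102 per kb.

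Mean counts followed gene length closely in this set. The rank correlation of mean count with gene length was 0.856 across the 46 members, against 0.361 across the 17664 genes with a mean of at least 1, and genes are not independent replicates. Levels per kb spanned 14.0-fold in the members and 1.36e+07-fold in these genes. In the same order, the interquartile ranges were 161 to 279 and 2.68 to 135 per kb. A mean count is level per kb times length, and whether the spread of levels bears on these correlations was not tested. Per kb, the correlation with length was -0.297 for the members and -0.150 for the genes. The 14 members under 10 kb had a median of 235 per kb, the 22 members of 10 to 50 kb one of 190, and the 10 longer ones 163, whereas the genes in these classes had medians of 42.5, 51.9 and 21.4 per kb. In each class the members' median lay above that of the genes.

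**Figure D2:**
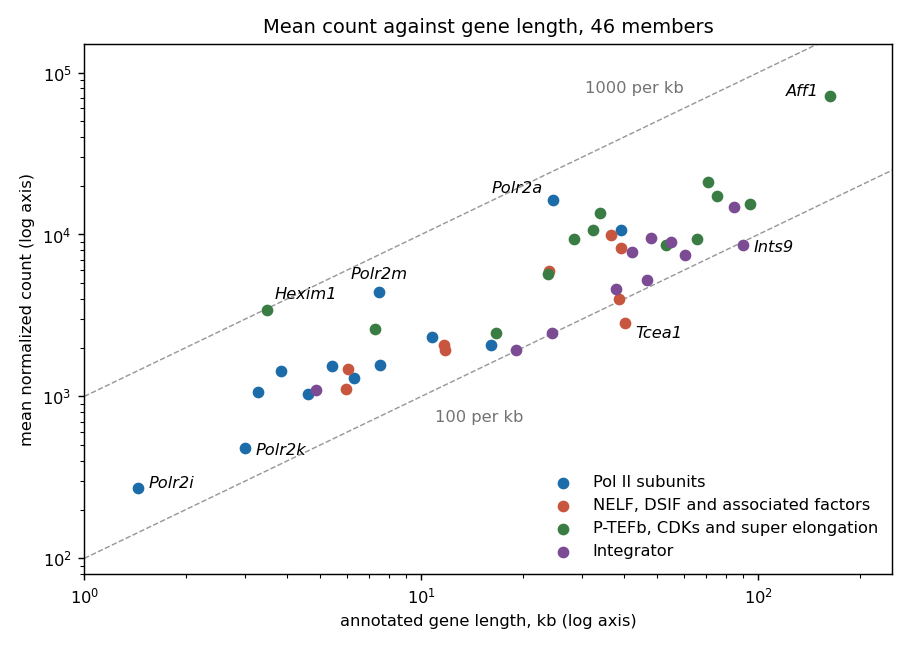
Mean normalized count of each member (vertical, log axis) against its annotated length in kb (horizontal, log axis), colored by group, with dashed lines at 100 and 1000 normalized counts per kb. All members but Tcea1 and Ints9 lie between the lines, in a band that follows length, with Hexim1, Polr2m and Polr2a nearest the upper line.

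PROMPTs are short-lived antisense RNAs made upstream of active promoters, which the nuclear exosome removes and which Integrator can cut short. The study counted them on the strand opposite the gene within 1 kb upstream of its start. Of the 33 members with a PROMPT row, all had reads and 29 had a mean of at least 1 normalized count, 87.9%, against 42.8% of 18090 PROMPTs that carry the symbol of a listed gene. Since members are strongly transcribed, a nearer background is the 5335 genes with a level per kb within the members' range, of which 77.6% had a PROMPT of at least 1. This range runs from Tcea1 at 70.4 to Hexim1 at 983 per kb, while the first quartile of the 46 members was 161 per kb. The genes were not matched to the members' levels within the range, where PROMPT rose with gene level (rank correlation 0.270). At a stricter limit of 10, the share was 60.6% for the members, 35.1% for the genes in this range and 15.7% for all 18090 PROMPTs. The members' median was 11.8, against 4.94 for the genes in this range.

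Nelfa had the highest PROMPT of the set at 88.8 normalized counts (95% exact Poisson interval 84.5 to 93.3, which treats the normalized sum over libraries as reads and covers counting error only). This stands beside a gene level of 104 per kb, in the lower part of the set, so that the PROMPT reached 85.4% of the gene's own level per kb. PROMPT and gene values were normalized separately, so such a share is not an exact ratio of transcription. The median of this share was 4.52% over the 33 members and 2.99% over the genes in the members' range of level. Tcea1 followed with a PROMPT of 66.0, 93.8% of its level over the whole gene but 26.1% of its level over the free part. Cdk12 (44.4), Iws1 (44.1), Ints8 (30.5), Supt5 (29.9), Polr2a (26.9) and Ints6 (26.4) came next.

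At the low end, 4 members had a PROMPT under 1. These were Supt6 at 0.562 (interval 0.271 to 1.03), Polr2g at 0.613 (0.306 to 1.10), Ints12 at 0.627 (0.317 to 1.11) and Aff4 at 0.788 (0.433 to 1.32). Their intervals overlap each other and reach 1, so their order and their side of the limit are not resolved at this depth. Supt6 and Ints12 also have a coding gene on the PROMPT strand in the window, Sdf2 at 126 and Gstcd at 55.7 per kb. Whether reads of these genes were left out of the PROMPT values was not tested. Aff4 was among the strongly transcribed members, at 296 per kb, and Polr2g at 281 per kb. Ell (1.17), Cdk13 (1.60), Polr2c (2.27), Nelfb (2.84) and Ccnk (4.13) were the next lowest. Ccnk, too, has a coding gene on the PROMPT strand in its window, Setd3 at 175 per kb.

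With levels over whole genes, PROMPT and gene level had little common order within the set. The rank correlation between gene level per kb and PROMPT was 0.0314 across the 33 members, whereas it was 0.270 across the 5335 genes in the members' range and 0.634 across 14403 genes with a mean of at least 1 and a PROMPT row. In it Tcea1, with a PROMPT of 66.0, enters at 70.4 per kb, although it stood at 253 per kb over its free part. The correlation with levels over free parts was not computed. Hexim1, with the highest gene level, had a PROMPT of 21.4, close to that of Ints1 (20.5), whose gene level was 101 per kb. Aff1 (20.8) and Aff4 (0.788), paralogs with gene levels within 1.48-fold, had PROMPTs on either side of the members' median of 11.8, as did Cdk12 (44.4) and Cdk13 (1.60). The DSIF genes, 1.02-fold apart in level per kb of gene, had PROMPTs of 29.9 for Supt5 and 12.1 for Supt4a.

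By group, the median PROMPT was 21.0 for NELF, DSIF and associated factors (8 rows), 12.8 for Integrator (8 rows), 11.2 for P-TEFb and super elongation (10 rows) and 11.1 for the Polr2 subunits (7 rows). Each group held members near 1 or below and members above 20, but the upper ends differed. The highest value was 26.9 for the Polr2 subunits and 30.5 for Integrator. It was 44.4 for P-TEFb and super elongation and 88.8 for NELF, DSIF and associated factors. Nelfa, Tcea1, Iws1 and Supt5 lay above every Polr2 subunit. The Polr2 subunits with the higher values after Polr2a were Polr2j (22.6), Polr2k (11.4), Polr2e (11.1) and Polr2m (10.0). For the kinase group they were Larp7 (22.9), Cdk7 (14.7) and Cdk9 (7.72) besides those given, and in the NELF group Nelfcd stood at 8.03. The remaining Integrator genes were Ints3 (13.7), Ints5 (11.8), Ints10 (7.57) and Ints4 (5.52).

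**Figure D3:**
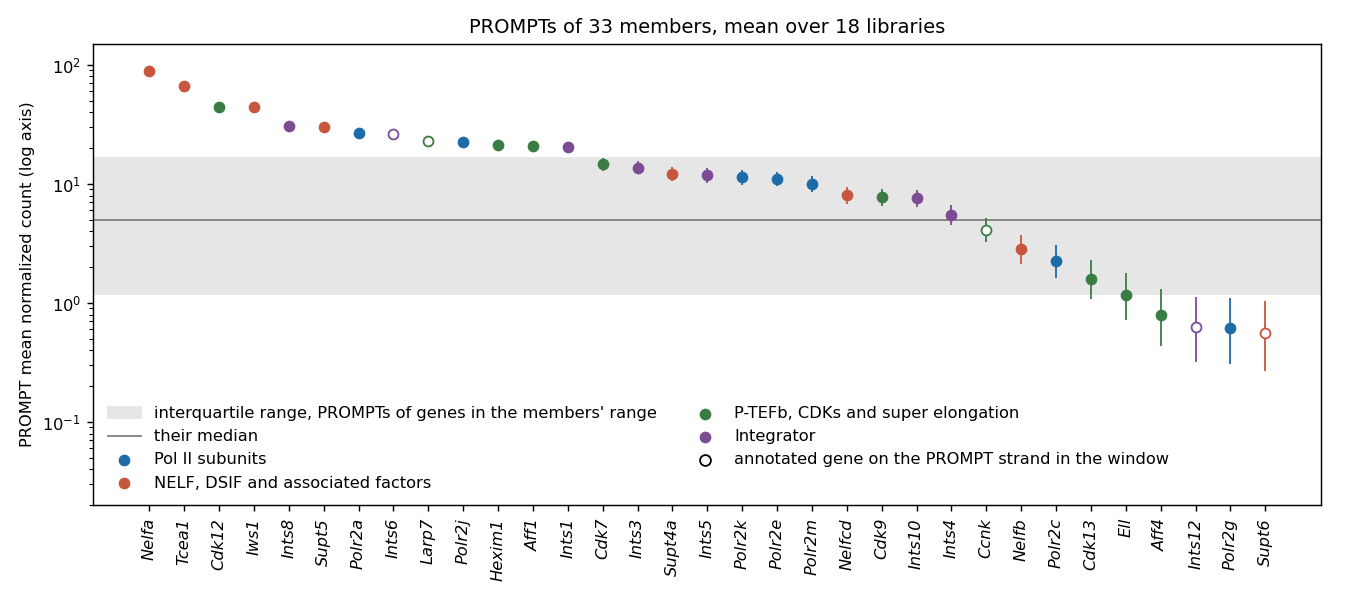
PROMPT mean normalized count (vertical, log axis) of the 33 members with a row, in descending order and colored by group, with 95% exact Poisson intervals for counting error; the gray band and line give the interquartile range and median (4.94) of PROMPTs of the 5335 genes whose level per kb lies within the members' range. Nelfa (88.8) and Tcea1 (66.0) are the highest, 4 members lie under 1, and open circles mark members with an annotated gene on the PROMPT strand in the window.

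To show the promoters behind these extremes, upstream sequence is given for the 3 members with the highest and the 3 with the lowest PROMPT among those whose RefSeq and Gencode starts agree within 150 bases and whose upstream bases lie in no annotated exon. They were chosen after the values were seen. Each is read 5′ to 3′ on the strand of the gene and ends at or before its start (RefSeq, GRCm38.p6). Capitals mark the searched motifs on either strand, which were TATAAA (the TATA box), CCAAT (bound by NF-Y), GGGCGG (a GC box bound by SP1), CCGGAA (the core bound by ETS factors) and ATGGCGG (bound by YY1). The promoters with a high PROMPT are those of Nelfa (chr5:33936414-33936521, minus strand), Supt5 (chr7:28338747-28338969, minus strand) and Polr2a (chr11:69758638-69758883, minus strand).
Nelfa: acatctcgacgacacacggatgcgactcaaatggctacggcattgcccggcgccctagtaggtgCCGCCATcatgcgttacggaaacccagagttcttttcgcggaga
Supt5: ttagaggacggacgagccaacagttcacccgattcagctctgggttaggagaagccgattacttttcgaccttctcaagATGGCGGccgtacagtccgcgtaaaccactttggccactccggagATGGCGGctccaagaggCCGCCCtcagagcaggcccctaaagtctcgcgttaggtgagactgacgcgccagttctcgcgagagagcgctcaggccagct
Polr2a: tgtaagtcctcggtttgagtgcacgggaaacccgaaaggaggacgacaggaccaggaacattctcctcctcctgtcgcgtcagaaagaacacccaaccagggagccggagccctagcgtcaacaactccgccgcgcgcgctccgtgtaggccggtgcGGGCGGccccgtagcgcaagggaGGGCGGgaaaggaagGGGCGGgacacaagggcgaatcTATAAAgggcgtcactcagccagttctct

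The promoters with a low PROMPT are those of Aff4 (chr11:53350517-53350766, plus strand), Cdk13 (chr13:17805098-17805347, minus strand) and Polr2c (chr8:94857200-94857449, plus strand).
Aff4: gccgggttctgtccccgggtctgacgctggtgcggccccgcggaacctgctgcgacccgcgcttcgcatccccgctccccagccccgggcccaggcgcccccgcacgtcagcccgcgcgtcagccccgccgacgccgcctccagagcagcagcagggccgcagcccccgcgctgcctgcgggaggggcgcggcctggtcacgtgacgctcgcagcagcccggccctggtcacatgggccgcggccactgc
Cdk13: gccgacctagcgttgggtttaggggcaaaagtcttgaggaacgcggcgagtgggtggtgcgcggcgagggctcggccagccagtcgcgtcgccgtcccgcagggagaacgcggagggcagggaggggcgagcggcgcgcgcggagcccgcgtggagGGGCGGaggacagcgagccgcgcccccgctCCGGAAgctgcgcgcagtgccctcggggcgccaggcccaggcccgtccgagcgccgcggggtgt
Polr2c: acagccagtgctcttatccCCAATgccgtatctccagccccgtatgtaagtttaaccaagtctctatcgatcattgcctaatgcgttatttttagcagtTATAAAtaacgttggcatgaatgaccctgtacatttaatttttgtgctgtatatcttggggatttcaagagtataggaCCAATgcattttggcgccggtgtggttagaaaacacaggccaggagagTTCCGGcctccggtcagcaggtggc

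Nelfa and Supt5, the members with the highest PROMPTs shown, hold ATGGCGG in this stretch, Nelfa at 1 place on the opposite strand and Supt5 at 2. Of the 33 members with a RefSeq promoter within 1000 bases of the Gencode start, these 2 (6.06%) hold this motif within 250 bases upstream, against 4.71% of 6985 promoters of genes in the members' range of level and 2.21% of all 32851 promoters. Cdk12 and Ints6, with PROMPTs of 44.4 and 26.4, and Polr2a hold none. Polr2a holds 3 GC boxes and a TATAAA close to its start. Polr2c, at the other end, also holds a TATAAA, with 2 CCAAT boxes and an ETS core. Aff4 holds none of these letters in a stretch with 79.2% G and C, and Cdk13 holds a GC box and an ETS core with 39 CpG pairs in 250 bases. A match is a description of the letters, not a binding site.

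Over these 33 members, 25 held a GC box (75.8%, against 62.0% of the promoters of genes in the members' range and 32.7% of all promoters) and 12 an ETS core (36.4%, against 26.4% and 12.0%). CCAAT was in 14 (42.4%, against 37.0% and 33.9%). TATAAA was in 3, those of Polr2a, Polr2c and Nelfb (9.09%, against 5.76% and 12.4%). The members' median was 22 CpG pairs in 250 bases, against 17 and 6. No motif contains another. The RefSeq starts of 2 further members, Aff1 and Ccnt1, lie farther from the Gencode start and were left out. Of the 24 members with both a promoter sequence and a PROMPT row, the GC box was in 11 of the 12 with the higher and in 7 of the 12 with the lower PROMPTs, and median G and C content was 61.4% and 61.2%. In the same order, CCAAT was in 5 and 4 members and an ETS core in 5 and 5. The median number of CpG pairs was 21.5 and 22.5. A link between motifs and PROMPT level was not tested.

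The 13 members without a PROMPT row were Polr2b, Polr2d, Polr2f, Polr2h, Polr2i, Polr2l, Nelfe, Ccnt1, Ccnt2, Ell2, Ints2, Ints7 and Ints9. Each of them has an annotated gene on the opposite strand within 1000 bases upstream of its start in Gencode vM21, whereas all 28 members without such a gene have a row. For all genes, 97.9% of those with a free window were in the PROMPT table and 38.7% of those with an opposite gene in the window. The members without a PROMPT value here include 6 of the 13 Polr2 subunit genes. Of the members with a row, 5 had such a gene in the window (Supt6, Ccnk, Larp7, Ints6 and Ints12), with PROMPTs from 0.562 to 26.4.

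For 13 members, 28.3%, a coding gene of the table starts within 1 kb on the other strand, against 10.6% of all matched genes. The matched genes include 1677 listed at 0, and the share among genes in the members' range of level was not computed. In 8 of the 13 pairs the starts lie 63 to 265 bases apart and in 5 the genes overlap at their starts by 81 to 324 bases. The member had the higher level per kb in 11 of the 13 pairs. The median percentile of the 46 members among genes was 85.7, so most genes lie below a typical member whether or not they are neighbors. The median fold between the pair was 1.83. The members' median here was 209 per kb and that of the neighboring genes 116.

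The widest gaps were at Ccnt1, 99.6 times higher than Tex49 (3.30 per kb), and at Polr2f, 38.7 times higher than 1700088E04Rik (5.63 per kb). Polr2l (326 per kb) was 4.45 times higher than Tspan4, Nelfe 2.49 times higher than Skiv2l, and Polr2b 2.33 times higher than Noa1, which encodes a mitochondrial GTPase. Polr2h and the chloride channel gene Clcn2 were nearly level (225 and 203 per kb), as were Larp7 (148) and Zgrf1 (157). Ints7 was the member with the clearly stronger neighbor, since Dtl, which encodes a substrate receptor of a ubiquitin ligase that acts in S phase, stood at 427 per kb against 197. The remaining pairs, Ints12 with Gstcd, Supt6 with Sdf2, Polr2i with Tbcb, Ccnk with Setd3 and Ints9 with Hmbox1, differed by 1.29 to 1.83 times, with the member higher in each.

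**Figure D4:**
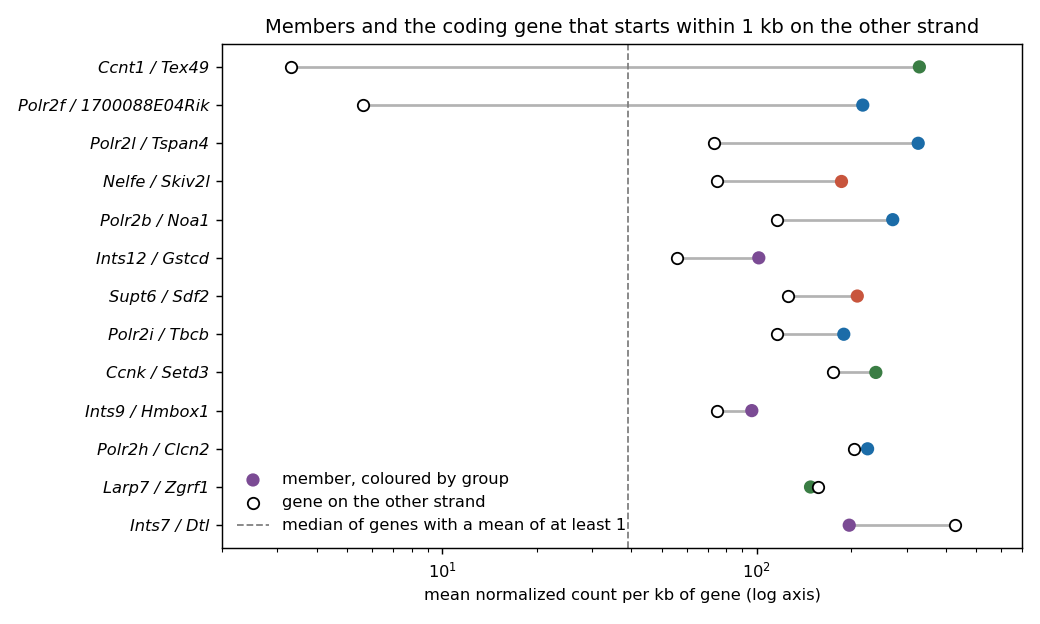
Level of each member (filled, colored by group) and of the coding gene that starts within 1 kb on the other strand (open), as mean normalized count per kb of gene on a log axis, for 13 pairs. The member is to the right in all pairs but Larp7 with Zgrf1 and Ints7 with Dtl, and Tex49 and 1700088E04Rik are the neighbors to the left of the dashed median of genes (38.9).

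Other genes of the same pathways, from lists that are no part of the 46, gave levels that spread more widely. Of 33 genes listed, 32 were found, and 28 of these lay above the median of genes with a mean of at least 1. The 7 further Integrator and SOSS genes found had a median of 113 per kb, close to that of the member subunits, with Ints6l, a paralog of Ints6, the lowest at 42.4. Among 12 further kinase, cyclin and super elongation genes, Ccnl1, encoding cyclin L1, was the highest at 770 per kb. Mepce, which encodes the 7SK capping enzyme, stood at 283 per kb, between Larp7 and Hexim1. Of the paralogs of members, Aff3 (2.54 per kb) and Ell3 (0.285 per kb) were the lowest. The 13 other RNAPII-associated genes, such as TFIIS paralogs and tail phosphatases, ranged from 40.9 to 292 per kb with a median of 124.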

How the data were processed

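Nascent RNA was measured by TT-seq in 18 libraries, 3 in each of 6 conditions. Per the methods, the authors used Trim Galore for trimming, STAR for unique alignment to mm10, featureCounts for stranded counting on Gencode vM25 and DESeq2 for normalization, without an expression filter. The submitters' processing notes also list HTSeq, and tool versions are not given in the sources used here. The deposited signal values are the authors' mean normalized counts over all libraries. The tables' other columns hold the authors' own comparison (fold change, its error, p-values) and were not used, so no test was made. Tables of distal and enhancer transcripts were left out. From the other pathway lists, 1 gene was left out and is not reported here.

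Levels were divided by gene length from Gencode vM21 on GRCm38, the build of mm10 with an earlier annotation, which matched 21817 of 21859 gene IDs. PROMPTs were joined by symbol, and windows of 1000 bases were rebuilt from vM21. Depth values were found by a search. It was also run on simulated data built from the depths it had returned, which cannot test those depths. Members and lists were chosen with earlier results of these data known. All 46 members are named; the promoters printed and at most 6 pathway genes outside the set were chosen after values were seen. Scripts ran in Python 3.11.15 (matplotlib 3.10.9, numpy 2.4.6, scipy 1.17.1, pandas 2.3.3). The alternatives tried were other lengths, limits and windows.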

Additional observations from a re-analysis of the deposited data

How the results depend on the processing

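The groups are given in the order Polr2 subunits, NELF with DSIF and associated factors, P-TEFb with CDKs and super elongation, and Integrator. Their median levels were 903, 935, 1159 and 876 per kb of merged exons, 1533, 2822, 9391 and 7518 normalized counts without length scaling, and 221, 209, 329 and 137 per kb over members that overlap no annotated gene on the same strand. The P-TEFb group was highest under each of these, whereas Integrator was not lowest without scaling. The values per kb of merged exons divide counts that appear to include intron reads by exon length alone. Per kb free of other listed genes, an alternative chosen after seeing the data, the NELF and DSIF median was 209 and the other 3 medians were the same as over whole genes. The median percentiles were 87.5, 83.3, 92.0 and 73.0 against genes with a mean of at least 1. They were 89.1, 85.3, 93.0 and 76.3 against all genes with reads, 85.7, 80.8, 90.9 and 69.1 against genes with a mean of at least 10, and 78.8, 79.5, 83.9 and 78.2 per kb of merged exons.

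The number of members with a PROMPT of at least 1 was 29, and it was 20 at a limit of 10, 33 with any reads and 26 in windows free of annotated genes on the PROMPT strand. The median PROMPT was 11.8 over all 33, 12.0 in free windows and 13.7 among members at or above 1. No paired analysis was possible because the values used are means over all 18 libraries, and for the same reason no replicate could be left out. Depth limits the low PROMPTs, where a mean of 0.562 corresponds to few reads in all libraries together.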

Other observations

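In the gene table, 400 genes had no base free of another listed gene on the same strand in Gencode vM21, and 398 of them (99.5%) were listed at 0. Among genes with some free base, 5.97% were listed at 0. Genes inside another gene on the same strand were at 0 also where the pair shared no exon (188 of 190), whereas 510 genes inside a gene on the opposite strand were at 0 in 8.04%, close to the 7.69% of all matched genes. A value of 0 for a nested gene on the same strand in this table therefore goes with its position, and no such gene is among the 46.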
